A study of Mus musculus with 2 samples.

Results

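In mouse frontal cortex, most sites of open chromatin with a strong DNase-seq signal also hold at least 1 footprint, and the sites described here are the strong ones that hold none. A site belonged to the set if it was a peak of the longer of the 2 peak lists deposited for its library, lay on an autosome, had a signal at or above the median of that list, and did not overlap any footprint of the same library by 1 bp or more. Members were thus chosen by 2 measured values, the peak signal and the footprint calls of the same library, and these values are given only as a description. In replicate 1 the set held 2681 of 51612 strong autosomal peaks (5.19%), and in replicate 2 it held 2718 of 40540 (6.70%). The full lists held 104654 and 81654 peaks.

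DNase-seq sequences the ends that the nuclease DNase I leaves where it cuts accessible DNA. The 2 libraries came from frontal cortex of female B6CASTF1/J mice, an F1 cross of a B6 and a CAST parent, taken at 10 days of age. The labels call them biological replicates 1 and 2 of 1 group and give both the same donor record. A mark "3x" in the labels is left unexplained there. No treatment or other condition was compared, whether the libraries came from different animals was not analysed here, and the read depth is unknown.

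A protein bound to open DNA shields its site from the nuclease, so that a short stretch with few cuts, the footprint, stands between frequently cut flanks. Factors that stay on DNA for long, such as the insulator protein CTCF, are known to leave clear footprints, whereas factors with short residence times often leave shallow ones or none. Promoters of many widely expressed genes lie in CpG islands, stretches rich in the dinucleotide CpG, whose chromatin is open around the start of transcription and is flanked by positioned nucleosomes.

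The sequences of 6 such sites show what a strong peak without a footprint looks like. They are the 3 strongest within 1 kb of a protein-coding start and the 3 strongest farther than 1 kb from every annotated start that were footprint-free in both libraries, spanned at most 300 bp and overlapped no annotated exon. Sequences are from the RefSeq copy of GRCm38.p6, the build whose coordinates the mm10 files use, on the plus strand, over the span called in replicate 1. CpG pairs are in capitals. The sites at coding starts are at Nfya (chr17:48409061-48409200, a subunit of the CCAAT-binding factor NF-Y), Atad1 (chr19:32712621-32712900, an AAA ATPase that removes mislocalised membrane proteins from mitochondria) and Hnrnpm (chr17:33684661-33684880, a splicing regulator).
Nfya: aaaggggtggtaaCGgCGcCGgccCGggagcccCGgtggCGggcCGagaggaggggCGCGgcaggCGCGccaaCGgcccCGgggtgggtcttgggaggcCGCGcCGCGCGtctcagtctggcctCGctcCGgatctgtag
Atad1: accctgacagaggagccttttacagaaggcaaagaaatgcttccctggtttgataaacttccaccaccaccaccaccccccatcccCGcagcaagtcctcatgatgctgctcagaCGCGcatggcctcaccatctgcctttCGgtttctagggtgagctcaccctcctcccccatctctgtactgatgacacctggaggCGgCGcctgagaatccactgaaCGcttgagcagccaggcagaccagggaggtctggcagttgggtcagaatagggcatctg
Hnrnpm: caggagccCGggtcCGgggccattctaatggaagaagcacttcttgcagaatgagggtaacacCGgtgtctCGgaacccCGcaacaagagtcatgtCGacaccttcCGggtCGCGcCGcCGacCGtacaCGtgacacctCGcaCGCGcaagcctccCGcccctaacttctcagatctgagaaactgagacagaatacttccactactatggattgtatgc
The sites away from starts are in an intron of Camta1 (chr4:151141401-151141540, a calmodulin-binding transcription activator), in an intron of Tnrc6c (chr11:117655881-117656140, a protein of microRNA silencing complexes) and in intergenic sequence nearest to Eef2k (chr7:120835001-120835240, the kinase of elongation factor 2).
Camta1: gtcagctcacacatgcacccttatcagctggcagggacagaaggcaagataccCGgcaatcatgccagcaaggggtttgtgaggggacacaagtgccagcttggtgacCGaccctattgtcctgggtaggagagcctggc
Tnrc6c: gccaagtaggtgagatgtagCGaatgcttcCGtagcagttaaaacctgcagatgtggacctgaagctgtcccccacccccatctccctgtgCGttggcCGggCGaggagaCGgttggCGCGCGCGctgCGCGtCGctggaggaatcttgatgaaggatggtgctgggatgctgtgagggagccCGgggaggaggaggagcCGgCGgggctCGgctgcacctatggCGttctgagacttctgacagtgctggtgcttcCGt
Eef2k: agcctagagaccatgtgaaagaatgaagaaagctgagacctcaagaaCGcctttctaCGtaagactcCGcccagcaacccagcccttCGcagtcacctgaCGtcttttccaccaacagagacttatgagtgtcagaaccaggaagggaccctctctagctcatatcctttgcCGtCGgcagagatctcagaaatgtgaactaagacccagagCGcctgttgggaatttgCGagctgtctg
The Nfya, Hnrnpm and Tnrc6c sites hold 20, 17 and 19 CpG pairs, and the Camta1 site holds 2.

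For comparison, the strongest footprinted peaks outside exons and of at most 300 bp within 500 bp of the Hnrnpm site (chr17:33684961-33685240) and of the Camta1 site (chr4:151141621-151141840) are shown with the footprints of replicate 1 in capitals.
Hnrnpm neighbour: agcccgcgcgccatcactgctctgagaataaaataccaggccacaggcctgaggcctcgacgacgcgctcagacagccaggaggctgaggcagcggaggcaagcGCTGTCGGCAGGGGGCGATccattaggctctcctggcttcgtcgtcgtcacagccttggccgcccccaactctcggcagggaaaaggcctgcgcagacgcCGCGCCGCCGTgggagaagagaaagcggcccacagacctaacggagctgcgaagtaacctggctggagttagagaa
Camta1 neighbour: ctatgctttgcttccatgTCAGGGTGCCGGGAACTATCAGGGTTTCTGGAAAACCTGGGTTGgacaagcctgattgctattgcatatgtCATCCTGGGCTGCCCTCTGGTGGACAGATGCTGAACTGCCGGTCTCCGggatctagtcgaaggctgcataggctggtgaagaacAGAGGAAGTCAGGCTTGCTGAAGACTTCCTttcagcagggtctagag
The Hnrnpm neighbour had a signal of 1.95 and 2 footprints, beside 1.55 and none at the site itself. The Camta1 neighbour had a signal of 6.79 and 3 footprints, beside 1.42 and none at the site itself.

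The signal deposited with each peak, read here as a density of cuts whose scaling the files do not state, had a list median of 0.604178 in replicate 1 and 0.879638 in replicate 2, and these medians were the thresholds. The weakest members lay on the thresholds, and the strongest footprint-free autosomal peaks just outside them had signals of 0.599 and 0.868. The name strong holds in relation to the threshold only. The members had a median signal of 0.776 in replicate 1, against 1.19 for strong peaks with footprints, and 1.09 in replicate 2, against 1.79. Their highest signals were 3.19 and 10.7, against 43.1 and 54.0 for footprinted peaks.

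When the strong peaks of each library were cut into 10 bins of about equal number by signal, 12.2% of the weakest bin in replicate 1 (95% exact binomial interval 11.3 to 13.2) and 17.3% in replicate 2 (16.1 to 18.5) had no footprint. The share was lower in each stronger bin. In the strongest bin it was 0 of 5163 peaks in replicate 1, which allows a share of up to 0.0581% by the rule of 3 counts and 0.0714% by the exact interval, and 3 of 4056 in replicate 2. Each comparison below therefore sets the members against footprinted strong peaks of like signal, that is, against all footprinted strong peaks weighted so that the 10 bins count as they do among the members. Intervals cover counting error only, and neighbouring peaks are not independent.

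**Figure D1:**
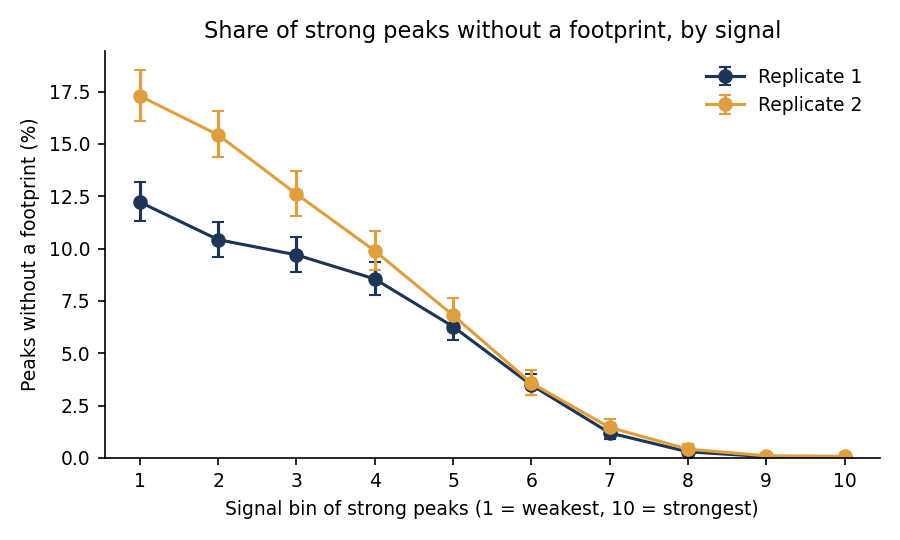
Share of strong autosomal peaks that hold no footprint (y axis, percent) in each of 10 signal bins (x axis, weakest to strongest), with 95% exact binomial intervals, for replicate 1 (blue) and replicate 2 (orange). The share is 12.2% and 17.3% in the weakest bin and at or near 0 in the strongest.

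The members lay mostly at gene starts. In replicate 1, 1923 of 2681 (71.7%, interval 70.0 to 73.4) had their centre within 1 kb of an annotated transcript start, against 29.7% of footprinted peaks of like signal. In replicate 2 the values were 2044 of 2718 (75.2%, 73.5 to 76.8) against 30.9%. Over all strong autosomal peaks the share at starts was 46.8% and 49.8%, so the members were above that background in both libraries and the footprinted peaks of like signal were below it.

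Introns, intergenic sequence and exons took smaller shares of all members. Introns held 16.1% and 12.8% of the members of replicates 1 and 2, against 36.3% and 34.8% of footprinted peaks of like signal. Intergenic sequence held 7.80% and 9.09% of the members, against 28.1% and 28.9%. Exons farther than 1 kb from a start held 4.36% and 2.91%, against 5.87% and 5.43%. The 4 shares sum to the whole, so the high share at starts lowers the others. Among peaks away from starts alone, exons held more of the members, with 15.4% (12.9 to 18.2) and 11.7% (9.39 to 14.4), against 8.48% and 7.99%. Intergenic sequence held 27.6% (24.4 to 30.9) and 36.6% (33.0 to 40.4) of those members, against 39.5% and 41.5%.

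**Figure D2:**
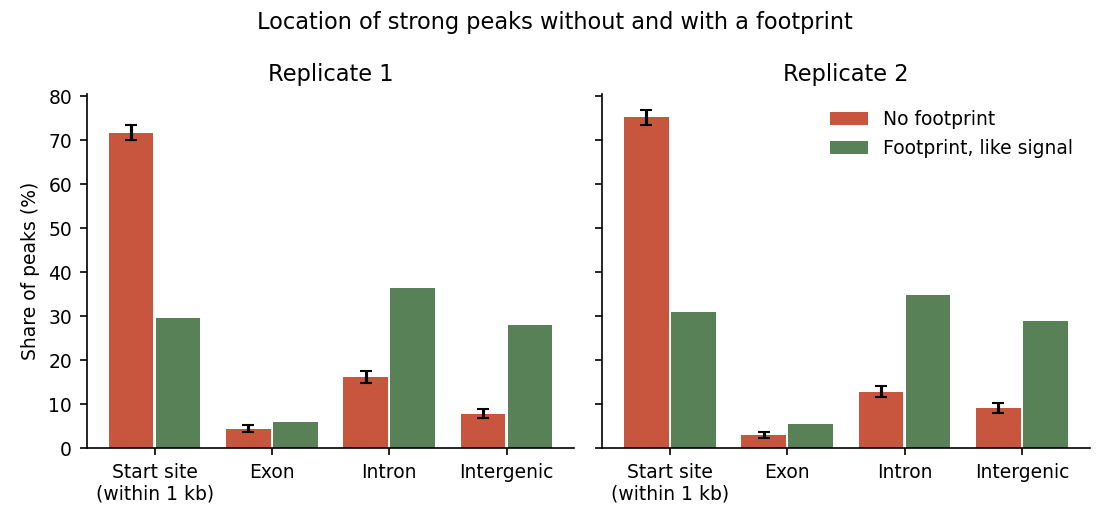
Share of peaks (y axis, percent) at start sites, in exons, in introns and in intergenic sequence, for strong peaks without a footprint (red, with 95% exact binomial intervals) and for footprinted strong peaks of like signal (green), in each replicate. Start sites hold 71.7% and 75.2% of the footprint-free peaks, against 29.7% and 30.9% of the footprinted ones.

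Around the starts, the footprint-free peaks sat to the side of the start and into the gene. Of the members at starts, 72.2% in replicate 1 (70.1 to 74.2) and 70.3% in replicate 2 (68.3 to 72.3) were centred downstream of the nearest start, against 56.3% and 52.6% of footprinted start peaks of like signal. Those centred 200 to 800 bp downstream made up 50.2% and 46.6%, against 28.6% and 25.1%. The stretch 200 to 800 bp downstream was thus where the members were over-represented most, in both libraries.

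Fewer members covered the start itself. A start base lay inside 21.7% (19.9 to 23.6) and 27.6% (25.7 to 29.6) of the members at starts, against 40.4% and 45.3% of footprinted start peaks of like signal. The median distance between peak centre and start was 383 and 319.5 bp for the members, against 234 and 183 bp. The nearest start belonged to a protein-coding gene for 88.4% and 89.9% of the members at starts, against 82.0% and 82.1%.

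**Figure D3:**
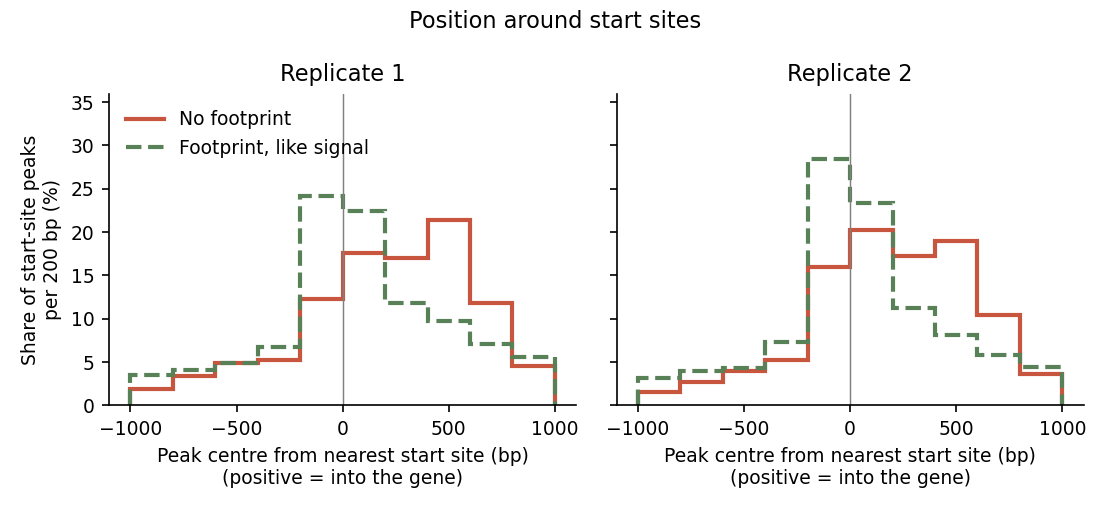
Share of start-site peaks (y axis, percent per 200 bp) by the distance of the peak centre from the nearest start (x axis, bp, positive into the gene), for strong peaks without a footprint (solid red) and footprinted strong peaks of like signal (dashed green). In replicate 1, 21.4% of the footprint-free peaks lie 400 to 600 bp downstream, against 9.70% of the footprinted ones, and in replicate 2 18.9%, against 8.14%.

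Most members stood beside a stronger peak. A stronger peak of the same list lay within 500 bp of 72.0% (70.3 to 73.7) of the members in replicate 1 and 70.7% (69.0 to 72.4) in replicate 2, against 19.1% and 14.5% of footprinted peaks of like signal and 18.9% and 15.9% of all strong autosomal peaks. At starts the shares were 83.7% and 82.0%, against 42.0% and 32.8%. Farther than 1 kb from every start, where 758 and 674 members lay, they were 42.5% and 36.4%, against 10.1% and 6.83%. The higher share of stronger neighbours was therefore found both at starts and away from them.

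At starts the stronger neighbour was usually the peak nearer to the start. Its centre was closer to its nearest start than the member's own centre was in 80.1% (78.1 to 82.0) of 1609 pairs in replicate 1 and 77.3% (75.3 to 79.3) of 1677 pairs in replicate 2, against 68.8% and 64.3% for footprinted start peaks that had a stronger neighbour. The neighbour's signal was a median of 3.95 and 3.36 times the member's, against 1.68 and 1.53 times for footprinted peaks of like signal. The neighbour held a footprint in 96.6% and 94.7% of these pairs, against 98.1% and 96.7%. A footprint within 50 bp outside the peak was found for 14.1% and 12.1% of all members.

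Read the other way, 19.8% of the 9775 strong peaks of replicate 1 with a stronger neighbour had no footprint, and 29.8% of 6443 in replicate 2. Among strong peaks with no other peak within 500 bp, 2.06% of 29974 and 2.53% of 25197 had none. The 616 and 638 members without a neighbour were a different group in their location, since 38.1% (34.3 to 42.1) and 40.3% (36.5 to 44.2) of them lay at starts, against 83.3% and 87.3% of the members with a stronger neighbour. Without peaks that have a neighbour within 500 bp, an alternative added after the data were seen, the difference in start-site share between members and footprinted peaks of like signal was 22.8 percentage points, against 43.2 for all members, as a mean of both libraries.

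The members were wider in the median and yet included many very narrow peaks. Their median width was 254 bp in replicate 1 and 260 bp in replicate 2, against 209 and 219 bp for footprinted peaks of like signal. Peaks of at least 300 bp made up 38.4% (36.5 to 40.3) and 41.6% (39.7 to 43.5) of the members, against 23.1% and 23.0%. Peaks under 100 bp made up 13.5% (12.2 to 14.9) and 12.5% (11.3 to 13.8), against 3.66% and 3.12%.

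In between, the members were scarce. Of strong peaks from 200 bp to under 250 bp wide, 1.96% in replicate 1 and 2.42% in replicate 2 had no footprint, and of those under 100 bp 28.1% and 34.6%. A narrow peak has less room for a footprint, and the part of width in the absence of footprints was not tested beyond these shares.

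**Figure D4:**
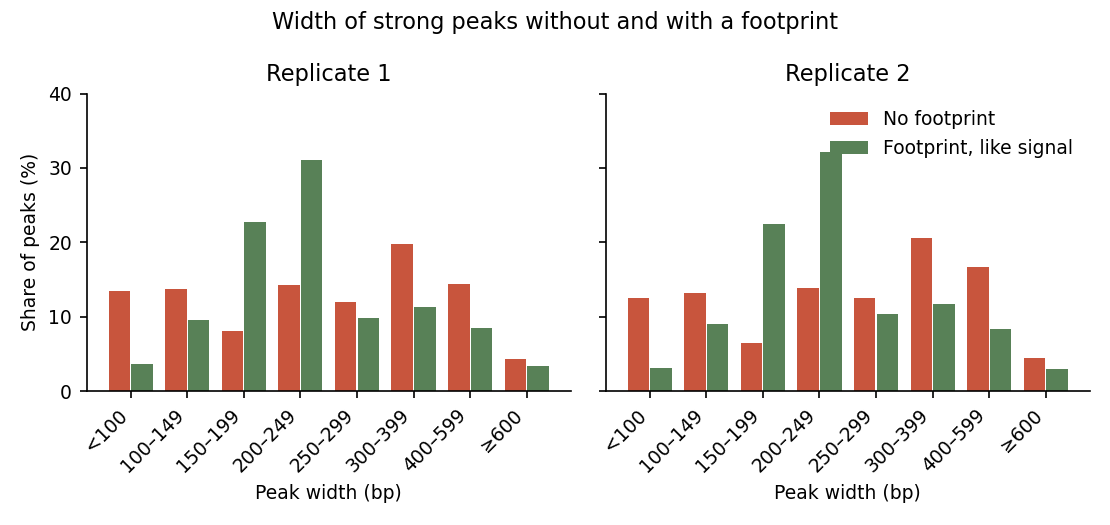
Share of peaks (y axis, percent) in each width class (x axis, bp), for strong peaks without a footprint (red) and footprinted strong peaks of like signal (green), in each replicate. The footprint-free peaks exceed the footprinted ones in the classes under 150 bp and from 250 bp up, and fall short of them from 150 bp to under 250 bp.

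The median width went with location. At starts it was 280 and 281 bp for members, against 260 bp in each library for footprinted start peaks of like signal. Away from starts it was 184 and 181.5 bp, against 200 bp in each library. Mean widths were lower for members in both places, and at starts they were 288 and 303 bp, against 317 and 309 bp. With like location as well as like signal, an alternative added after the data were seen, the difference in median width was 17 bp as a mean of both libraries, against 43 bp with like signal alone. With the threshold lowered to the 25th percentile of signal it turned round, to -32 bp.

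The 3 widest sites that were footprint-free in both libraries were at Mex3b, an RNA-binding protein, at Id4, an inhibitor of basic helix-loop-helix factors, and at Grm3, a metabotropic glutamate receptor. The Mex3b site was 1020 and 1320 bp wide in replicates 1 and 2, the Id4 site 900 and 1000 bp, and the Grm3 site 840 and 760 bp. The Mex3b site was centred in an exon 2317 bp downstream of the coding start, the Id4 site 602 bp and the Grm3 site 110 bp downstream. All 3 had a stronger peak within 500 bp in replicate 1.

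Fewer members than footprinted peaks were found in the other library. Of the members of replicate 1, 69.0% (67.2 to 70.7) overlapped a peak of replicate 2 by 1 bp or more, against 81.2% of footprinted peaks of like signal. Of the members of replicate 2, 85.3% (83.9 to 86.6) overlapped a peak of replicate 1, against 96.1%. Over all strong autosomal peaks the shares were 89.2% and 97.3%. The members were below the footprinted peaks both at starts (70.2% and 84.1%, against 79.5% and 95.4%) and away from them (66.0% and 88.9%, against 78.7% and 95.8%). The gap was wider away from starts in replicate 1 and wider at starts in replicate 2.

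Where a member was shared, its counterpart often lacked a footprint too. For replicate 1, 1087 of 1849 shared members (58.8%, 56.5 to 61.0) overlapped only replicate 2 peaks without a footprint, against 13.1% of shared footprinted peaks of like signal. For replicate 2, 624 of 2318 (26.9%, 25.1 to 28.8) overlapped only replicate 1 peaks without one, against 2.76%. Among all shared strong autosomal peaks the shares were 8.98% and 2.79%. The 2 directions differ, as do the shares of all peaks, and replicate 1 has the longer peak list. Replicate 2 also has more peaks without a footprint, 14.71% of autosomal peaks from the 25th percentile of signal, against 8.908% in replicate 1. What these differences contribute to the 2 directions was not tested.

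The repeated absence was more frequent at starts. Of shared members at starts, 67.7% (65.1 to 70.2) in replicate 1 and 31.6% (29.5 to 33.9) in replicate 2 had a counterpart without a footprint, against 17.8% and 4.18%. Away from starts it was 34.8% (30.6 to 39.2) and 13.4% (10.7 to 16.3), against 13.4% and 2.45%. A footprint of the other library lay inside 25.2% and 60.6% of all members, against 70.4% and 93.6% of footprinted peaks of like signal. Most members of replicate 2 were thus footprinted in replicate 1.

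**Figure D5:**
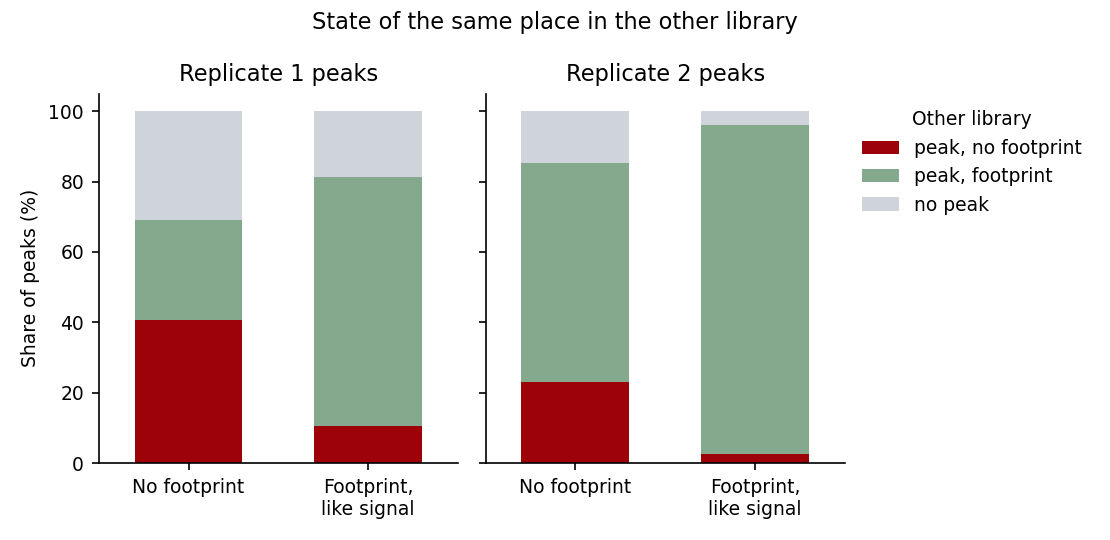
Share of peaks (y axis, percent) whose place in the other library held a peak without a footprint (dark red), a peak with one (green) or no peak (grey), for strong peaks without a footprint (left bar) and footprinted strong peaks of like signal (right bar) of each replicate. The footprint-free peaks overlap a footprint-free peak in 40.5% and 23.0% of cases, the footprinted ones in 10.6% and 2.65%.

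Nearly all of the strongest members were footprinted in the other library. In replicate 2 the strongest was a 60 bp peak in intergenic sequence 52217 bp from the start of Wnt7b, a secreted signalling protein, with a signal of 10.7. Its counterpart in the other library had a footprint and a signal of 9.46. In replicate 1 the strongest was a 180 bp peak 1024 bp from the start of Tob1, an antiproliferative protein, with a signal of 3.19. Its counterpart also had a footprint, and a signal of 3.81. Of the 5 strongest members of each library, 9 had a footprint at their place in the other library. The exception, at Derl1 in replicate 1, overlapped no peak there. Over all strong autosomal peaks, a footprint of the other library lay inside 81.2% in replicate 1 and 94.8% in replicate 2. The strongest members were thus near that background, and the members as a whole, with 25.2% and 60.6%, were below it.

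The members were rich in CpG. Over the 200 bp around the peak centre, the median ratio of observed to expected CpG was 0.596 in replicate 1 and 0.668 in replicate 2, against 0.321 and 0.334 for footprinted peaks of like signal. The median GC content was 60.5% and 62.5%, against 54.5% in each library. Since starts are CpG-rich, the ratio was also compared within location. At starts it was 0.687 and 0.743, against 0.576 and 0.610, and away from starts 0.360 and 0.366, against 0.263 and 0.270. Against footprinted peaks of like signal, the members had the higher median in each of these settings. Without matching on signal, footprinted start peaks had the higher median at starts, 0.765 and 0.790.

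The deposited false discovery rates of local cutting were lower in members at starts than in those away from starts, with no matching of signal between them. The median of the lowest log10 rate in a peak was -6.09 and -6.02 for members at starts, against -5.31 and -5.24 for footprinted start peaks of like signal. Away from starts it was -3.32 and -3.11, against -4.30 and -4.60. The shorter peak list pointed the same way, by an overlap of 1 bp or more with any of its peaks. Such an overlap was found for 83.9% and 82.9% of the members at starts, against 76.1% and 75.1%. For the members away from starts it was found for 51.1% and 47.2%, against 69.3% and 73.7%. Set against footprinted peaks of like signal, members at starts thus had the lower false discovery rates, and members away from starts the higher ones. Peaks over 50% soft-masked as repeats made up 0.634% and 0.699% of the members, against 1.88% and 1.72%.

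Exact matches to 26 short motifs were counted on both strands in the 200 bp around each peak centre. At starts, 7 of the 26 were found in a smaller share of members than of footprinted start peaks of like signal, by more than the counting interval in both libraries, and 0 in a larger share. The 7 were those of CTCF (the string AGGGGGCGC), CRE-binding factors, RFX, NFI, POU, homeobox factors and the TATA box. Beside all strong start peaks the NFI string was not rarer, with 8.53% and 8.22% of members, against 8.47% and 8.05%. The homeobox string was in 0.624% and 0.783%, against 0.824% and 0.762%. The POU string was below that share in both libraries, with 0.208% and 0.342%, against 0.729% and 0.841%. So was the TATA box, with 1.66% and 1.52%, against 2.29% and 2.39%. Away from starts, 1 was rarer and 1 more frequent in both libraries. A match is a string in the sequence and not a bound site, and overlaps between motifs were not removed.

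The motif that was rarer in both locations was the CTCF string AGGGGGCGC. It was found in 1 of 758 and 1 of 674 members away from starts (0.132% and 0.148%), against 1.80% and 2.26% of footprinted peaks of like signal there and 2.97% and 3.46% of all strong peaks away from starts. At starts it was in 0.832% (0.476 to 1.35) and 1.13% (0.715 to 1.68), against 2.01% and 2.23% of footprinted start peaks of like signal and 2.44% and 2.60% of all strong start peaks. The other CTCF string, AGGTGGCAG, was below the footprinted share by more than the interval in replicate 2 away from starts (0.890%, against 2.76%) and not in replicate 1 (1.58%, against 2.45%). At starts it did not differ by more than the interval in either library. Its shares there were 1.04% (0.636 to 1.60) and 0.734% (0.411 to 1.21), against 1.22% and 1.07%, and 0.973% and 0.891% of all strong start peaks.

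The cyclic AMP response element TGACGTCA was in 0.104% and 0.196% of members at starts, against 0.581% and 0.874% of footprinted start peaks of like signal and 2.20% and 2.46% of all strong start peaks. The RFX string GTTGCCATG was in 0.208% and 0.196%, against 0.847% and 0.859%, and in 0.882% and 0.866% of all strong start peaks. These shares rest on 2 to 4 members per library. The SP and KLF string GGGCGG, which is GC-rich, was the one found more often, in 16.6% (14.0 to 19.5) and 20.6% (17.6 to 23.9) of members away from starts, against 10.8% and 10.3% of footprinted peaks there and 12.6% and 12.8% of all strong peaks there. At starts its shares were 36.2% and 42.1%, against 35.9% and 37.7%, and 50.6% and 52.7% of all strong start peaks.

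A smaller set was footprint-free in both libraries, that is, a member of replicate 1 overlapped a member of replicate 2 by 1 bp or more. A peak of such a pair could also overlap a footprinted peak of the other library. With each peak used once, the set held 652 sites, which are 24.3% of the number of members in replicate 1 and 24.0% in replicate 2. Counted by peak, 26.0% of the members of replicate 1 and 25.4% of those of replicate 2 overlapped a member of the other library. Over all strong autosomal peaks these shares were 4.67% and 3.03%. Of the 652 sites, 571 (87.6%) were at a start and 81 were farther than 1 kb from every start. The 555 sites at a coding start were centred a median of 312 bp downstream of it, and 75.3% of them lay downstream. A stronger peak stood within 500 bp of 83.1%.

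The strongest of them was at Akt1s1, which encodes an inhibitory partner of the kinase complex mTORC1, with signals of 2.31 and 3.32 in replicates 1 and 2 and a centre 9 bp downstream of the coding start. The site at Ppp2r3d, which encodes a regulatory subunit of protein phosphatase 2A, had signals of 2.14 and 2.51 and lay 903 bp downstream. The site at Fem1c, a substrate receptor of a ubiquitin ligase, had 1.73 and 2.42 and lay 681 bp downstream. These were all near a stronger, footprinted region in replicate 1, since each of the 10 strongest sites had both a stronger and a footprinted peak within 500 bp.

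Next in signal at coding starts came Asb5, Nfya, Atad1, Ctso, Zfand5, Hnrnpm and Gtf2ird2, with signals of 1.44 to 1.92 in replicate 1 and 1.82 to 2.11 in replicate 2. Ctso encodes a lysosomal protease, and Asb5 an adaptor with a SOCS box. Their centres lay between 429 bp upstream, at Atad1, and 601 bp downstream, at Hnrnpm. Of the 10 strongest sites at any location, 2 were not at a coding start, the Camta1 one described below and one with signals of 2.08 and 2.05. The second lay 514 bp from an annotated start of 2610005L07Rik and 61090 bp from the nearest coding gene, Gm15319.

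Away from starts the strongest site was the Camta1 one, with signals of 1.42 and 2.10, followed by an intronic site nearest to Cstad with 1.47 and 1.94 and by the Tnrc6c site with 1.21 and 2.04. The Cstad site (chr2:30659281-30659680) had neither a stronger nor a footprinted peak within 500 bp in replicate 1 and held 2 CpG pairs in its central 200 bp. An intergenic site 98219 bp from the start of Tmem161b, with signals of 1.27 and 1.51, likewise had no such neighbour. Several others were only just outside the 1 kb limit, at 1009 bp for Fam219a, 1187 bp for Lmnb1, which encodes lamin B1, 1197 bp for Tnrc6c and 1258 bp for Amer2.

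Among coding genes with a strong peak at a start, 13.8% (1805 of 13052) in replicate 1 and 15.3% (1903 of 12463) in replicate 2 had at least 1 footprint-free one. For 30 and 63 genes every strong start peak was footprint-free, so nearly all genes of the set also had a footprinted start peak. Against that background, 12 gene lists were counted, without a test. A gene counted if any of its starts had such a peak. Genes with more strong start peaks thus had more chances to count, and this was not corrected for.

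Activity-induced genes, which neurons switch on within minutes of stimulation, had a footprint-free strong start peak in 6 of 20 in replicate 1 and 7 of 20 in replicate 2. Members of the 2 libraries overlapped at Egr3, Egr4, Fosl2 and Jun, which encode transcription factors. At Egr3 the replicate 2 member, 628 bp wide, also had a footprint of replicate 1 at its place, so that site was not free of footprints throughout. At Jun, a subunit of AP-1, the site had signals of 1.15 and 1.29 and lay 542 bp downstream of the coding start. At Fosl2, another AP-1 subunit, it had 1.00 and 1.14 and lay 387 bp downstream. The strongest start peak of Jun had signals of 9.93 and 12.2 in the libraries, above those of the footprint-free site. In replicate 1 the annotated start nearest to the footprint-free Jun site was that of the antisense gene Junos, at 146 bp.

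Lists of cell type markers were nearer to the background or differed between the libraries. Astrocyte genes counted 3 of 16 and 3 of 15, with Id4 and the glial factor Sox9 in both libraries. Excitatory neuron genes counted 2 of 19 and 3 of 18, with the corepressor Tle4 in both, and inhibitory neuron genes 2 of 15 and 2 of 13, with none in both. Pan-neuronal genes counted 4 of 18 in replicate 1 and 0 of 18 in replicate 2.

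Oligodendrocyte lineage genes counted 1 of 9 (Pdgfra) and 1 of 7 (Olig2). Housekeeping genes counted 1 of 18 and 2 of 18, with Gapdh in each library, and ribosomal protein genes 0 of 20 and 1 of 20. Microglia genes counted 0 of 4 and 0 of 3, vascular genes 0 of 6 and 0 of 1, liver genes 0 of 1 and 0 of 1, and muscle genes 1 of 6 (Pygm) and 0 of 6. These counts are too small to place most lists above or below the background.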

How the data were processed

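The deposited peaks, footprints and rates of cutting of 2 mouse frontal cortex libraries were used, on assembly mm10 per the labels. The peak signal is the authors' value per peak in the deposited lists, its scaling not stated. The deposited false discovery rates of the cut rate, a p-value type of measure, were read as the lowest log10 rate in a peak. Every footprint row carries the same deposited value, 0.01, which ranks nothing. For the aligner and the callers, names were not given in the sources used here. Read depth is unknown. Peaks were called per library, since each library has its own deposited lists.

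Starts, exons and genes came from GENCODE M21 and sequence from GRCm38.p6. A peak went to a start if its centre lay within 1000 bp of any transcript start, failing that, by its centre, to exon, intron or intergenic sequence. Peaks were shared at an overlap of 1 bp. Footprinted strong peaks were weighted by 10 signal bins to the members' distribution, and within starts or away from them also by location. Shares carry 95% exact Clopper-Pearson intervals, which cover counting error only. No test was run, since the 2 libraries form 1 group, and the replicate numbers pair nothing. Printed sequences leave out chromosome 18. Sites footprint-free in both libraries were named if they were among the 10 strongest at any location, at coding starts or away from starts, the 3 widest, or at a start of a list gene. The 5 strongest members of each library and list genes found in a single library were named in addition, after their values were seen. Members, gene lists and motifs were chosen with earlier results of these data known. Python 3.11.15, numpy 2.4.6, pandas 2.3.3 and scipy 1.17.1 were used, and the interval code was tested on simulated data.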

Additional observations from a re-analysis of the deposited data

How the results depend on the processing

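Of 61 values of the 5 results under alternatives other than leaving out a library, 34 moved by less than the spread between the 2 libraries, 26 moved by more, and 1 changed sign. Values are means of both libraries. The footprint-free share, 5.95% (5.195 and 6.704 with 1 library left out), was 3.263% with footprints of either library, 1.048% from the 75th and 11.81% from the 25th percentile of signal, and 1.935% in the shorter peak list. The start-site difference, 43.16 percentage points (42.02 to 44.29 leaving out a library), was 47.9 with footprints of either library, 46.84 and 24.9 from the 75th and 25th percentiles, 47.48 in the shorter list, 35.99 with like width, 26.75 without matching, 27.51 within 500 bp of a start, and 22.8 without peaks that have a neighbour. The width difference, 43 bp (41 to 45), was 38.25 with a footprint overlap of 5 bp, 58.5 with footprints within 50 bp counted, 50 and -32 from the 75th and 25th percentiles, 58 in the shorter list, 48.5 without overlapping peaks, 7 with like width (by construction), 37 without matching and 17 with like location. The sharing difference, -11.52 points (-12.19 to -10.86), was -22.83 with footprints of either library, -12.81 without overlapping peaks, -17.11 without matching, -27.32 at 50% reciprocal overlap and -10.24 with like location. The difference in counterparts without a footprint, 34.95 points (24.16 to 45.73), was 73.22 with footprints of either library, which by construction uses the other library's calls. It was 22.09 from the 25th percentile, and from the 75th 53.95 in replicate 1 and 10.13 in replicate 2; the wide spread between the libraries (15.25) makes the comparison with it a weak one here. With footprints of either library the footprint-free share can only fall by construction, and the sharing difference also uses the other library's calls. For the other values the cause was not tested. The alternatives with like location and without neighbours were chosen after seeing the data. No paired analysis was possible because both libraries belong to 1 group. Read depth is unknown, so no limit of footprint detection can be given.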
